A study of Mus musculus with 48 samples.

Results

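Open chromatin was examined at 9 loci of the epithelial-mesenchymal transition: Cdh1, Epcam, Cdh2, Vim, Fn1, Zeb1, Zeb2, Snai2 and Twist1. Each locus was a fixed window on mouse build mm9, and every merged ATAC-seq peak centred in a window was a member, whatever its values. This gave 131 of 114043 merged peaks: 26 at Cdh1, 13 at Epcam, 28 at Cdh2, 14 at Fn1, 15 at Zeb1, 23 at Zeb2, 4 at Snai2 and 8 at Twist1. The Vim window held 0 merged peaks, so Vim could not be tested. All 131 had an adjusted p in the CMV comparison and 123 had one in the CGRP comparison. The gene order of build GRCm38.p6 puts all 9 genes on the chromosomes of their windows. That build is not the one of the peaks, so no peak was assigned to a promoter, exon or intron. The windows can also hold parts of neighboring genes: the next coding genes are, for example, Cdh3 and Tango6 beside Cdh1, and Ferd3l and Hdac9 beside Twist1.

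The transition from epithelial to mesenchymal states is a program in which cells loosen their contacts and become motile. Cdh1 encodes E-cadherin, the adhesion protein of epithelial junctions, and Epcam encodes an epithelial surface adhesion protein. Cdh2 (N-cadherin), Vim (the intermediate filament protein vimentin) and Fn1 (the matrix protein fibronectin) are classical mesenchymal genes. Zeb1, Zeb2, Snai2 and Twist1 encode transcription factors that bind E-box motifs and can repress Cdh1. Small cell lung cancer is a neuroendocrine tumor that spreads early, often to the liver.

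Tumors of every group came from mice of the genotype Trp53-/-;Rb1-/-;p130-/-;R26mG, which names 3 deleted tumor suppressors. Loss of these genes in each library was not checked. Tumors were started with an adenovirus carrying Cre, driven either by the CMV promoter, active in most cell types (Ad-CMV-Cre), or by that of the neuroendocrine peptide CGRP (Ad-CGRP-Cre). The CMV comparison set 8 libraries with amplified Nfib, a gene for a nuclear factor I transcription factor, over 7 without it. The CGRP comparison set 7 liver metastases over 11 lung tumors, and the comparisons share no library. Of the 8 amplified CMV libraries 6 were metastases (5 liver, 1 lymph node), while all 7 others were lung tumors, so amplification and site cannot be told apart. Among these 15 CMV libraries, 11 have titles with the code V5, 6 of them amplified and 5 not. The 8 amplified libraries carry 2 codes and the 7 others 3. In the CGRP comparison the 7 liver metastases carry 3 codes and the 11 lung tumors 5. The labels do not say whether a code marks an animal, so the number of animals is unknown. The p-values are set by how much libraries vary within groups, and that variation may be partly technical. One not amplified library is not linked to the comparison table in its label. Another 15 CMV libraries were marked low in enrichment and entered neither comparison. Of the CGRP lung tumors, 1 carried the Nfib amplification. The tables give fitted changes and no value per library, so depth is unknown and the level in each library is not shown here. In bulk tumor samples, fewer cells with an open site and less opening per cell cannot be told apart.

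Upstream sequences from the promoter table of RefSeq (build GRCm38.p6) were searched for 4 of the 9 genes: Epcam, Twist1, Vim and Zeb2. The other genes were left out of this search, so the match counts below do not cover them. Whether that table held them is not shown here. Epcam and Twist1 are shown because their windows changed in opposite directions in CMV tumors and because E-boxes of the form CACCTG are the textbook motif of ZEB and SNAI factors. The 250 bases upstream of each annotated start are given 5′ to 3′, with CACCTG and its complement CAGGTG in capitals. The Epcam sequence lies at chr17:87635729-87635978 on the plus strand, and the Twist1 sequence at chr12:33957421-33957670 on the plus strand.
Epcam: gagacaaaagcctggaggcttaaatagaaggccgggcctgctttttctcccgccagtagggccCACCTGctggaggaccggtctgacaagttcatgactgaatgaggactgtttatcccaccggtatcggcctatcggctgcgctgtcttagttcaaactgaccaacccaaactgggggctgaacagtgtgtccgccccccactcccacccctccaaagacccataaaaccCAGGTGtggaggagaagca
Twist1: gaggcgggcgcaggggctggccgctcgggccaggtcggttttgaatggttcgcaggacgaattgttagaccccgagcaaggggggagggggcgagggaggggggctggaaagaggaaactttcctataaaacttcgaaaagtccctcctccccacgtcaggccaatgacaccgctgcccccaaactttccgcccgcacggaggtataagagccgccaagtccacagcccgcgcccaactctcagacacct
The Epcam sequence held 2 matches, 1 in each orientation, and the Twist1 sequence held 0. Upstream sequences of Vim and Zeb2 also held 0. Among 32851 upstream sequences of the same length in that table, 17.2% held at least 1 match on either strand and 2.06% held at least 2. A match is a description of the letters and no evidence of binding, and the peaks could not be placed on these sequences.

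In CMV tumors, peaks at the epithelial loci were more often lowered than raised with Nfib amplification, and peaks at the mesenchymal and factor loci were more often raised than lowered. A peak was called raised or lowered at an adjusted p under 0.05 (Wald test with DESeq2 column names) in the authors' deposited table. At Cdh1 and Epcam together, 18 of 39 peaks (46.2%) were lowered and 2 (5.13%) were raised in the authors' deposited table. At Cdh2, Fn1, Zeb1, Zeb2, Snai2 and Twist1 together, 44 of 92 peaks (47.8%) were raised and 4 (4.35%) were lowered in the authors' deposited table. Of all 113873 peaks tested, 34.3% were raised, 12.2% were lowered and 46.5% were called in either direction. Summed over all loci, 46 of 131 peaks (35.1%) were raised, a share near the background, and 22 (16.8%) were lowered. The median log2 fold change in the authors' deposited table was -0.66 over the 39 epithelial-locus peaks and 1.04 over the 92 others, against 0.60 over all peaks. The contrast between these groups of loci is a description of counts and was not tested.

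**Figure D1:**
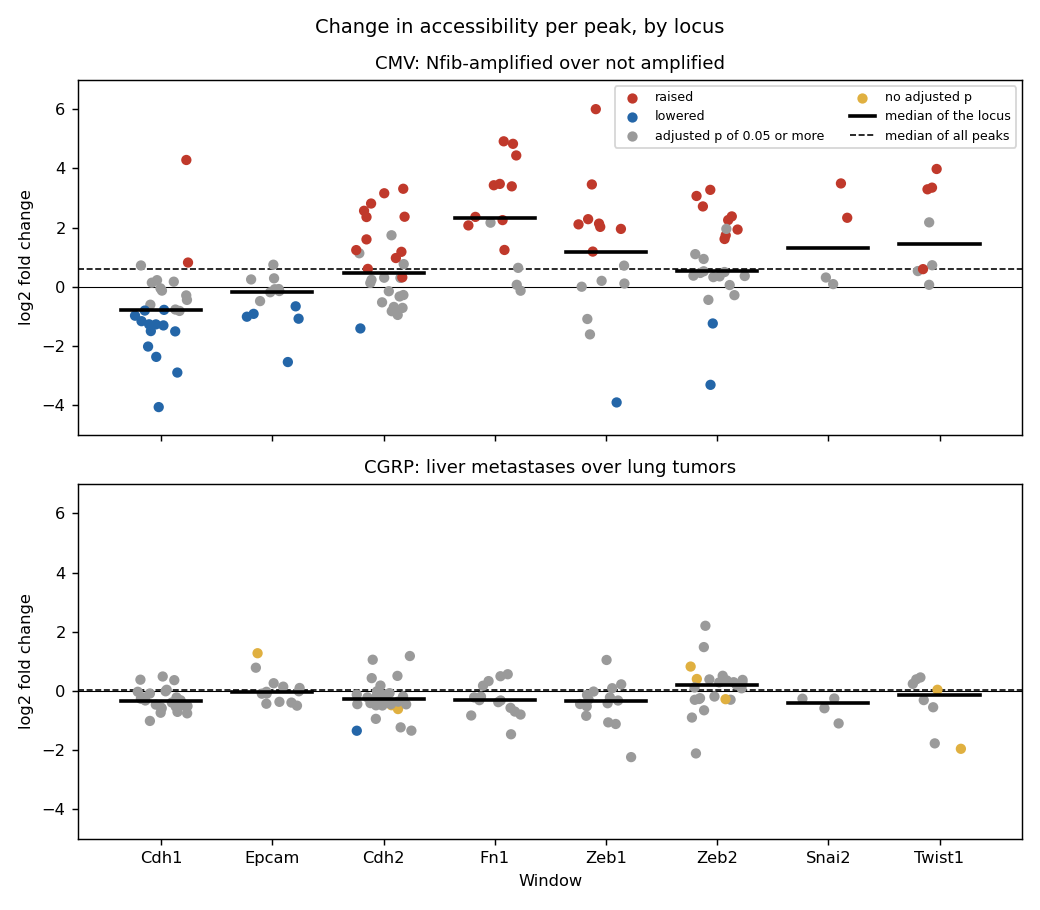
Log2 fold change of each member peak (points) by window in the CMV comparison (upper panel) and the CGRP comparison (lower panel), with the median of the locus as a bar and the median of all peaks as a dashed line. Cdh1 (13 lowered, 2 raised) and Fn1 (10 raised, 0 lowered) stand at opposite ends in the CMV panel, while the CGRP panel has 1 called peak.

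The typical peak was itself shifted upward, and the split moves with the zero point. After centring on that 0.60, 25 epithelial-locus peaks were called lower and 1 higher. On that scale 25 of the 92 mesenchymal and factor peaks were higher and 15 lower, against 19.9% higher and 25.5% lower among all peaks. The medians of Cdh2 and Zeb2 lay below 0 after centring, and those of Fn1, Zeb1, Snai2 and Twist1 above it. The authors deposited a second test, whose null was read from its column names and values as changes up to 0.5 on the log2 scale. In it 6 epithelial-locus peaks were lowered and 1 raised, and 25 of the other 92 were raised and 2 lowered. That test raised 19.0% and lowered 4.64% of all peaks.

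Cdh1 had more lowered peaks than any other of the loci. The window runs on chromosome 8 from 109050000 to 109250000. Of its 26 peaks, 13 were lowered and 2 (7.69%) raised in the authors' deposited table, where their median was -0.79 on the log2 scale, between quartiles of -1.30 and -0.07. The peak from 109151522 to 109152022 lost most: the authors' deposited table gave -4.06 (SE 0.49, DESeq2 adjusted p = 3.243e-13), a 16.7-fold lower signal. Next in size was the peak from 109139751 to 109140251, with -2.90 (SE 0.43, adjusted p = 3.163e-09) by the authors' deposited table. These steep losses sat among peaks that were lowered less. The Cdh1 peak with the highest mean normalised count (242.0), from 109132132 to 109132632, had -1.30 (SE 0.46, adjusted p = 0.01353) by the authors' deposited table, with a 95% interval from -2.21 to -0.40.

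The longest run of neighboring peaks called in 1 direction at any locus was also at Cdh1. It comprised 5 lowered peaks over 37.6 kb from 109159434 to 109197001, and the authors' deposited table placed them between -2.02 and -0.80. Loss was not uniform across the window. Toward its lower end, a weak peak of mean count 9.0 from 109082861 to 109083361 was raised by 4.29 (SE 0.91, adjusted p = 3.035e-05) by the authors' deposited table. Toward the upper end, the peak from 109228704 to 109229204 was raised by 0.82 (SE 0.22, adjusted p = 0.000832) by the authors' deposited table. Between the lowered peaks lay some that were not called, such as one with 0.14 (SE 0.52) from 109134742 to 109135242 in the authors' deposited table.

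Epcam lost accessibility at fewer peaks and by less. Its window runs on chromosome 17 from 87980000 to 88100000. Of its 13 peaks, 5 (38.5%) were lowered and 0 raised in the authors' deposited table (DESeq2), and the count raised was also 0 at an unadjusted p under 0.05. Their median log2 fold change was -0.18. The peak from 88019270 to 88019770 lost most, at -2.54 (SE 0.65, adjusted p = 0.0005255) by the authors' deposited table. The other 4 lowered peaks were stronger and lost less: the authors' deposited table gave -1.08 (SE 0.25) from 88008967 to 88009467, where the mean count was 127.2, and -0.66 (SE 0.18) from 88035792 to 88036292, where it was 140.3. The Epcam-window peak with the highest mean count (260.6), from 88071537 to 88072037, had -0.18 (SE 0.13, adjusted p = 0.2549) by the authors' deposited table, with an interval from -0.44 to 0.08.

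**Figure D2:**
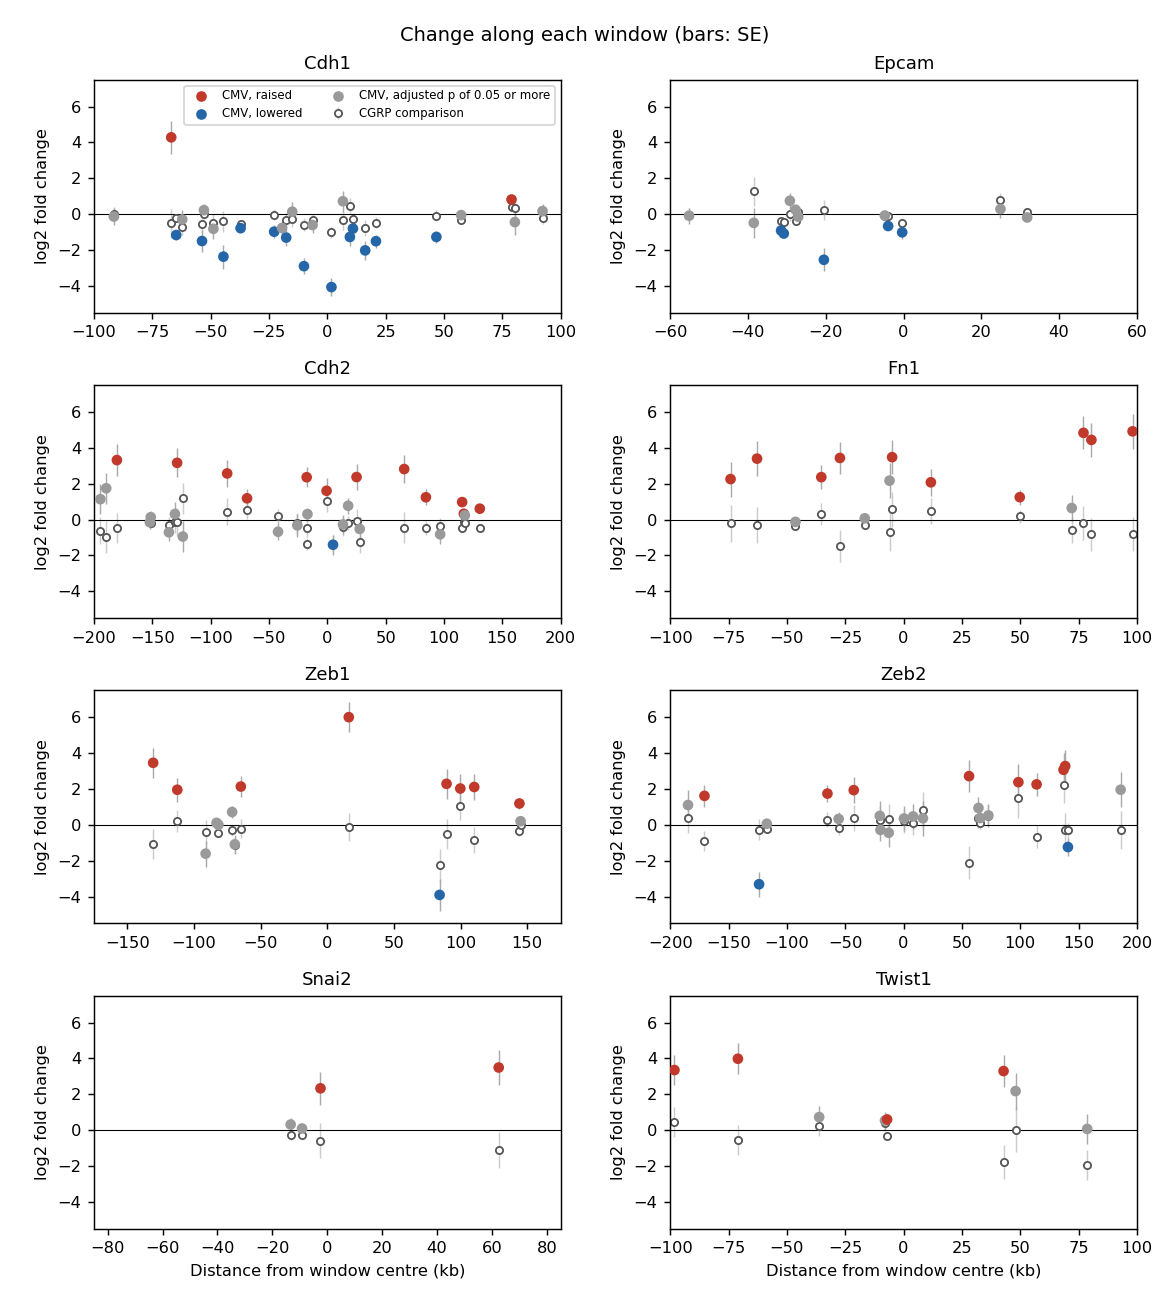
Log2 fold change against distance from the centre of each window in kb, with the SE as bars; filled points are the CMV comparison, coloured by call, and open points the CGRP comparison. Lowered peaks of Cdh1 lie in the middle of its 200 kb window on both sides of the centre, while raised peaks at Fn1 and Zeb1 are interspersed with peaks that were not called.

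Fn1 gained accessibility at the largest share of its peaks. The window runs on chromosome 1 from 71550000 to 71750000. Of its 14 peaks, 10 (71.4%) were raised and 0 lowered in the authors' deposited table, with a median log2 fold change of 2.31. The leading gains lay together near the upper end of the window. There the authors' deposited table gave 4.83 (SE 0.92) from 71726879 to 71727379, 4.44 (SE 0.93) from 71730271 to 71730771 and 4.92 (SE 0.98, adjusted p = 9.934e-06) from 71747926 to 71748426. The last corresponds to a 30.2-fold difference. The mean counts of these 3 peaks were 30.2, 20.8 and 12.9. No summit of the CGRP pool lay within 250 bp of the centre of any of them. Of the 10 raised Fn1 peaks, 5 held such a summit, against 54.6% of raised peaks over the genome. The strongest Fn1 peak, with a mean count of 439.4, from 71603439 to 71603939, had -0.13 (SE 0.14, interval -0.41 to 0.15) in the authors' deposited table. Without Fn1, 34 of the remaining 78 mesenchymal and factor peaks (43.6%) were raised.

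At Cdh2, the raised peaks ranged from 0.32 to 3.31 in the authors' deposited table. The window runs on chromosome 18 from 16650000 to 17050000. Of its 28 peaks, 12 (42.9%) were raised and 1 lowered in the authors' deposited table, and their median of 0.46 lay under the 0.60 of all peaks. The largest gain, 3.31 (SE 0.89, adjusted p = 0.001096) by the authors' deposited table, was at a peak with a mean count of only 2.8, from 16669421 to 16669921. The single lowered peak, from 16854660 to 16855160, had -1.41 (SE 0.56, adjusted p = 0.02761) by the authors' deposited table. A set of 4 peaks between 16965339 and 16980964, chosen after their values were seen, included both peaks with the highest mean counts of the window (262.4 and 288.4). In the authors' deposited table their log2 fold changes were 0.97 (SE 0.22), 0.32 (SE 0.13), 0.24 (SE 0.12) and 0.61 (SE 0.24), and the third was not called (adjusted p = 0.09557).

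Zeb1 held the largest single gain of any member. The window runs on chromosome 18 from 5500000 to 5850000, with 8 of 15 peaks (53.3%) raised and 1 lowered in the authors' deposited table. The peak from 5690874 to 5691374 stood at 6.01 (SE 0.85, adjusted p = 4.401e-10) by the authors' deposited table, a 64.3-fold difference at a mean count of 17.6. Further along the window, the peak from 5758970 to 5759470 moved the other way, with -3.91 (SE 0.90, adjusted p = 0.0001363) by the authors' deposited table. Immediately after it came a run of 4 raised peaks over 55.2 kb, from 5764191 to 5819341, which the authors' deposited table put between 1.19 and 2.29. The strongest Zeb1 peak (mean count 263.5), from 5819730 to 5820230, lay beside the end of that run and had 0.20 (SE 0.17, interval -0.13 to 0.53) in the authors' deposited table.

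Zeb2 was the locus nearest to the background among the factors. On chromosome 2 from 44700000 to 45100000, 8 of 23 peaks (34.8%) were raised and 2 (8.70%) lowered in the authors' deposited table, and the median was 0.52. A run of 4 raised peaks spanned 40.6 kb from 44998217 to 45038818, which the authors' deposited table put between 2.26 and 3.28. The largest loss, -3.31 (SE 0.69, adjusted p = 1.999e-05) by the authors' deposited table, was from 44775944 to 44776444. The next peak along the window was the strongest of all members, from 44782558 to 44783058. With a mean count of 850.6, it had 0.06 (SE 0.11, interval -0.16 to 0.28) in the authors' deposited table.

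Snai2 and Twist1 had few peaks. On chromosome 16 from 14630000 to 14800000, the Snai2 window had 2 of 4 peaks raised in the authors' deposited table, at 2.33 (SE 0.92) from 14712275 to 14712775 and 3.49 (SE 0.98) from 14777193 to 14777693. The strong Snai2 peak (mean count 313.2) from 14705552 to 14706052 had 0.09 (SE 0.20, adjusted p = 0.7282) by the authors' deposited table. The Twist1 window, on chromosome 12 from 34550000 to 34750000, had 4 of 8 peaks raised and 0 lowered in the authors' deposited table. Gains of 3.35 (SE 0.82), 3.98 (SE 0.85) and 3.30 (SE 0.92) in the authors' deposited table were at peaks of mean count 23.0, 38.6 and 42.0. The Twist1 peak with the highest mean count (95.4), from 34642720 to 34643220, was raised by only 0.60 (SE 0.23, adjusted p = 0.02635) by the authors' deposited table, the same as the median of all peaks.

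The strongest peaks of the loci were described separately. In 6 of the 8 loci with peaks, the peak with the highest mean count was not called for Nfib amplification, and the authors' deposited table gave these peaks values between -0.18 and 0.24. The 95% intervals of these 6 peaks together ran from -0.44 to 0.53. Cdh1 (lowered) and Twist1 (raised) were the other two. Of the 12274 peaks over the genome with a mean count at least as high as the weakest of these 8 (95.4), 50.7% were not called. The count depends on the zero point: after centring on the median of all peaks, 7 of the 8 were called lower, Twist1 being the exception, against 60.6% of those 12274 peaks. The centred values at Fn1, Zeb2 and Epcam were -0.73, -0.54 and -0.79. Among the 92 mesenchymal and factor peaks, the median log2 fold change in the authors' deposited table was 1.96 for the 45 peaks with a mean count below the median of all peaks (21.2) and 0.50 for the 47 at or above it. Over all peaks the corresponding medians were 1.04 and 0.25. The epithelial loci had -0.37 over 12 weaker peaks and -0.78 over 27 stronger ones. The mean count of a peak was the same in both comparisons, but the sources used here do not say over which libraries it was taken.

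**Figure D3:**
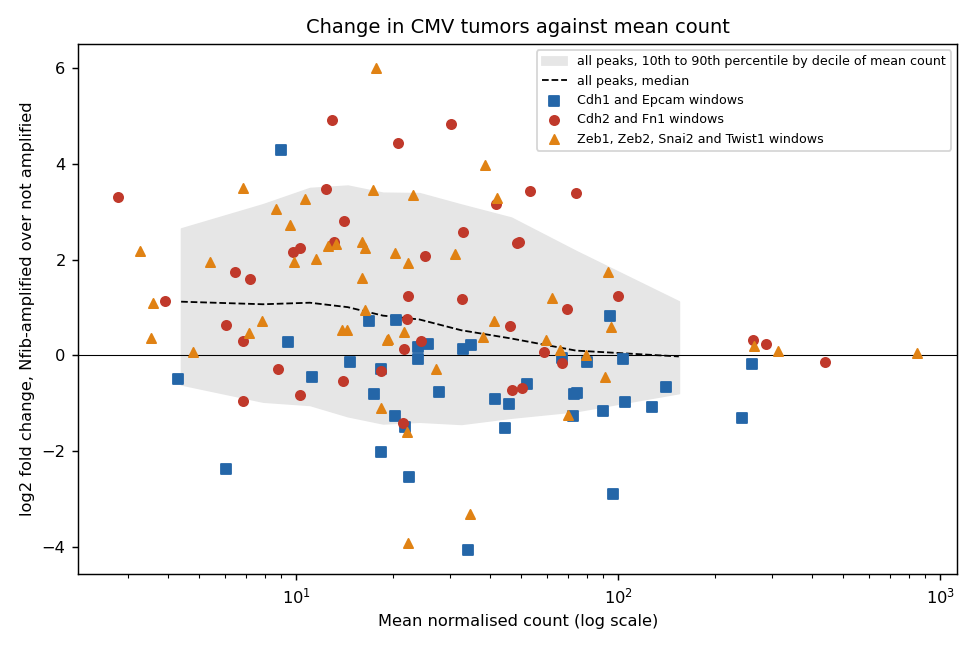
CMV log2 fold change of each member peak against its mean normalised count on a log axis, with the median and the 10th to 90th percentile of all peaks by decile of mean count behind. Members with a mean count above 200 lie near 0 except the Cdh1 peak at -1.30.

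In CGRP tumors, hardly any peak of these loci passed the test between liver metastases and lung tumors. Of 123 peaks with an adjusted p in the authors' deposited table, 1 was lowered and 0 raised, where the background was 0.779% lowered, 0.0752% raised and 0.854% in either direction. The lowered peak was at Cdh2, on chromosome 18 from 16832739 to 16833239, and its change was -1.35 (SE 0.33, adjusted p = 0.01005) by the authors' deposited table. For Nfib amplification in CMV tumors, the authors' deposited table gave the same peak 0.30 (SE 0.37, adjusted p = 0.5115). At an unadjusted p under 0.05 (DESeq2's columns), 16 of the 131 member peaks were lower and 3 higher, against 6.25% lower and 3.37% higher among all peaks. The next closest to the threshold was the Cdh1 peak from 109151522 that had lost most in CMV tumors, with -1.02 (SE 0.30, adjusted p = 0.06541, interval -1.60 to -0.43) in the authors' deposited table.

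More members lay below 0 than above in the CGRP comparison. Of the 131 peaks, 92 (70.2%) were below 0, against 48.9% of all peaks, and the median was -0.26 against 0.01 in the authors' deposited table. This held at Cdh1 (22 of 26), Cdh2 (23 of 28) and Fn1 (10 of 14), but at Zeb2 14 of 23 peaks were above 0. Neighboring peaks share libraries and are not replicates, and these counts were not tested. The median SE of the members was 0.52, so a change of about 1 on the log2 scale would have been hard to detect at a typical peak. Preparation batch 2 held the 7 liver metastases and 7 of the lung tumors, and batch 3 the other 4 lung tumors. No value within a batch could be computed from the fitted changes.

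Whether a peak changed differently in the comparisons was tested directly, with a two-sided z test adjusted by Benjamini-Hochberg over all peaks. The difference was signed, CMV minus CGRP, so a peak lowered further in CMV tumors has the higher change in CGRP tumors. Of the 131 members, 29 had the higher change in CMV tumors and 7 in CGRP tumors, against 17.8%, 5.62% and, in either direction, 23.4% of all peaks. This balance turned with the zero point: with each comparison centred on its median, a setting chosen after seeing the data, 15 members had the higher change in CMV tumors and 19 in CGRP tumors, against 9.13% and 15.8% of all peaks. Without centring, the 7 comprised 5 at Cdh1, 1 at Epcam and 1 at Zeb2, and of the 29, 1 lay at Cdh1 and 0 at Epcam. The Cdh1 peak from 109151522 differed by -3.05 (SE 0.58, adjusted p = 1.692e-05) between the comparisons and the Epcam peak from 88019270 by -2.80 (SE 0.85, adjusted p = 0.009238). For the leading Zeb1 peak from 5690874 the difference was 6.14 (SE 1.16, adjusted p = 1.519e-05), and for the Fn1 peak from 71747926 it was 5.72 (SE 1.37, adjusted p = 0.0007839).

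Cdh2 had 10 of the 29 peaks with the higher CMV change. The 4 peaks between 16965339 and 16980964 were all among them, with differences of 1.42 (SE 0.30), 0.46 (SE 0.17), 0.42 (SE 0.16) and 1.10 (SE 0.31). The CGRP log2 fold changes of the 4 peaks in the authors' deposited table were -0.45, -0.14, -0.18 and -0.49, none called. The Cdh2 peak that fell in CGRP metastases also differed, by 1.65 (SE 0.49, adjusted p = 0.007489). By contrast, the lowered Cdh2 peak from 16854660 had -1.34 (SE 0.49) in CGRP tumors and -1.41 (SE 0.56) in CMV tumors by the authors' deposited table, a difference of -0.06 with an interval from -1.52 to 1.39.

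Summits called on pooled libraries gave a second view of the same loci. The CMV pool merged 19 libraries of preparation batch 1, of which 15 were low in enrichment, and the CGRP pool merged 14 libraries of batch 2. The mixed pool merged 15 libraries of batch 3, 11 CMV and 4 CGRP. Since the CMV pool and the CGRP pool are each 1 vector and 1 preparation batch, the influence of vector and of preparation batch cannot be told apart. By the labels, the CMV pool also spans sequencing batches 1 and 3. Over the genome the CMV pool had 1.46 summits for each CGRP summit (251512 and 172434). At Cdh1 the order was the other way, with 28 CMV and 39 CGRP summits, and at Epcam there were 13 and 19. Every factor locus had more CMV than CGRP summits: Zeb1 had 34 and 20, Zeb2 61 and 28, Snai2 16 and 2, and Twist1 38 and 4. The ratio at Zeb1, 1.70, was near the 1.46 of the genome. Cdh2 had 66 and 35, Fn1 18 and 13.

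Many of the additional CMV summits at Twist1 were weak. Among the 100000 highest-scoring summits of each list, Twist1 kept 6 CMV and 1 CGRP summits, Cdh2 18 and 17, and Cdh1 16 and 27. Zeb1 kept 15 and 13, Zeb2 20 and 15, Snai2 4 and 1, Fn1 13 and 6, and Epcam 7 and 12. The excess of CMV summits at Zeb1, Zeb2 and Cdh2 was thus small on this scale. Of the 38 CMV summits in the Twist1 window, 31 lay more than 250 bp from any merged peak and were thus outside both comparisons. All 22 member peaks lowered in the CMV comparison held a CGRP-pool summit within 250 bp of their centre, against 97.9% of lowered peaks over the genome. Of the 46 raised members, 24 (52.2%) held one, against 54.6% of raised peaks over the genome. Both shares were near those of all peaks called in that direction.

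**Figure D4:**
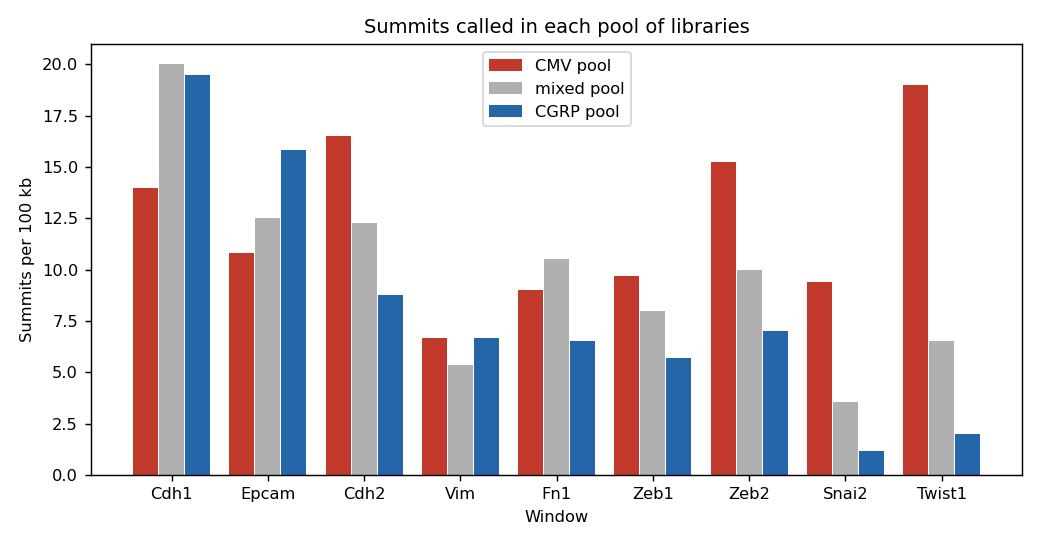
Summits per 100 kb of window called in the CMV, mixed and CGRP pools of libraries, 1 list per pool and so without error bars. Cdh1 and Epcam show more CGRP than CMV summits, Twist1 shows 19.0 CMV and 2.0 CGRP summits per 100 kb, and Vim shows 6.67 in both.

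Vim, whose window runs on chromosome 2 from 13420000 to 13570000, was covered by summits of all 3 pools although it held no merged peak. The window lay inside a stretch of 10.3 Mb without merged peaks, from 11985950 to 22260141. The CMV pool had 10 summits in the window, the CGRP pool 10 and the mixed pool 8. The highest-scoring one was at nearly the same base in each pool, at 13466131, 13466110 and 13466118, and ranked at the 99.0th, 97.1st and 98.1st percentile of the scores of its list. A group of further summits lay between 13495350 and 13497256 in all 3 pools. Pool scores rank summits within a list only, so no change at Vim can be read from them.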

How the data were processed

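ATAC-seq libraries from 48 mouse tumor samples were used through 6 deposited files. The submitters' processing notes name Bowtie2, MACS2, DESeq2 and build mm9, without roles. Trimming, duplicate removal, the filter behind the merged peaks and any shift of reads were not stated there or in the labels. The deposited summit score was read as −log10 of a q-value from its smallest value of 1.30. The deposited tables hold, per the file headers, the mean normalised count (a signal averaged over libraries by the authors), the authors' log2 fold changes with SE, the authors' Wald score, and the authors' p-values and adjusted p-values. The sources used here do not say whether the authors shrank the log2 fold changes. The direction of each comparison rests on the names of the tables, and the null of the second deposited test on its column names and values.

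Peaks are 501 bp wide; coordinates are 1-based mm9. Peaks were assigned to windows by their centre and joined to both tables by name. Intervals are 95% from the deposited SE. The difference test was run on all 113873 peaks with a p in both tables. Its calculation was run on simulated data with normal noise drawn from the same deposited SE that the test uses. That simulation cannot show whether those SE hold for weak peaks. The members and lists were chosen with earlier results of these data known. Named peaks are, per locus, the one with the highest mean count, the raised and the lowered one with the largest change, every one called in CGRP tumors and the longest run of at least 3; others are named where the text describes their surroundings, after their values were seen. No annotation of mm9 was at hand, so the planned list of other transition genes and markers of other cell types were not analysed here. Columns of per-library values: 0 were used. Alternatives covered thresholds of 0.01 and 0.1, the second deposited test, centring, adjustment, a mean count of at least 20, window size and summit distance. Tables were read with pandas 2.3.3, tests run with scipy 1.17.1 and numpy 2.4.6 under Python 3.11.15, and plots drawn with matplotlib 3.10.9.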

Additional observations from a re-analysis of the deposited data

Results flagged for a closer look

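The Vim window was in no comparison, yet it held summits in every pool: 10 in the CMV pool, 10 in the CGRP pool and 8 in the mixed pool. The whole stretch of 10.3 Mb without merged peaks held 645, 493 and 564 summits of these pools. Summits without a merged peak were thus not particular to the Vim window. These counts cover calling on pooled libraries only, with no control samples, and what removed the stretch from the merged list was not tested.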

How the results depend on the processing

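No paired analysis was possible because the tables hold fitted changes and no column of a library; leaving out a replicate could not be run for the same reason. In the CMV comparison, raised members numbered 46; the count was 30 at an adjusted p under 0.01, 26 in the second deposited test (null of 0.5 on the log2 scale), 26 after centring, 25 at a mean count of at least 20, 26 in windows shortened by 20% at each end and 104 in windows lengthened by 50% at each end, where the number of peaks examined changes by construction. The 22 lowered members became 14, 8 and 40 under the first 3 of these, and 9 without the Cdh1 window, a setting chosen after seeing the data. The 1 lowered CGRP peak became 0 at 0.01, 2 at 0.1, 0 in the test against 0.5 and 3 in lengthened windows. Of members with a higher CMV change, 29 became 16 at 0.01, 15 after centring (also chosen later), 18 at the mean count minimum, 14 in shortened and 61 in lengthened windows; the 7 with a higher CGRP change became 4 at 0.01 and 19 after centring. Medians of the CMV comparison moved by more than the typical SE of a peak as follows. Centring gave -1.39 at Cdh1, -0.79 at Epcam and -0.14 at Cdh2. The mean count minimum gave 0.20 at Zeb1, 0.092 at Snai2 and 3.32 at Twist1. Shortened windows gave 0.41 at Zeb1 and 0.31 at Snai2. Lengthened windows gave 1.11 at Cdh2, 1.58 at Zeb2, 2.27 at Snai2 and 3.30 at Twist1, and -1.10 at Snai2 in the CGRP comparison. The strongest peaks of 5 loci changed sign after centring: Snai2 (-0.51), Cdh2 (-0.37), Twist1 (-0.0057), Zeb2 (-0.54) and Zeb1 (-0.40). For all of these the cause was not tested beyond the construction of the setting. The numbers of members with a summit of each pool (115 CMV, 95 CGRP, 121 mixed) stayed within 1.5 times at 100 and 500 bp. Depth per library is unknown, and the SE of weak peaks, up to about 1 on the log2 scale, limits what could be called there.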
